A study of Mus musculus with 4 samples.

Results

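The genes described here are the receptor chains, the kinase, the transcription factors, the feedback inhibitor and the target genes of interleukin-4 (IL-4) and interleukin-13 (IL-13) signalling. They were measured in microglia, the resident macrophages of the brain. The 10 genes were chosen by name: Il4ra, Il13ra1, Il2rg, Jak1, Stat6, Socs1, Irf4, Arg1, Retnla and Tgm2. Of these, 9 had a probe set with 1 gene symbol, out of 17618 named genes kept in all. Il2rg, the common gamma chain, was not analysed here. Each of the 9 genes had 1 probe set.

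Microglia were isolated from the whole brains of male C57BL/6J mice that had received OVA (the allergy group) or PBS (the control group), and were collected 1 day after they were challenged through the nose. The ages were P70 and P30 (postnatal days). The 4 groups were OVA at P70, PBS at P70, OVA at P30 and PBS at P30. In each group material of 4 samples was pooled and hybridised to 1 array, so there were no replicates, no test was possible, and the number of arrays limits the precision. The doses and the schedule of sensitisation are not given in the sources used here.

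IL-4 binds the receptor chain encoded by Il4ra, which pairs either with the common gamma chain (Il2rg) or with the IL-13 receptor chain (Il13ra1). The pair with Il13ra1 also responds to IL-13. Janus kinases at these chains, Jak1 among them, phosphorylate the transcription factor STAT6, which then enters the nucleus and binds the promoters and enhancers of its target genes. Both cytokines are produced in allergic inflammation, and in mouse macrophages they induce Arg1, Retnla and other genes of alternative activation.

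Levels are log2 of the deposited intensity, and differences are log2 differences between 2 arrays. A gene was counted as differing at 1.5-fold or more, a log2 difference of 0.585. Genes whose mean over the 4 arrays reached that of the median gene, 7.18, are called expressed (8809 genes). By this rule 6 of the 9 measured genes were expressed, namely Il4ra, Il13ra1, Jak1, Stat6, Retnla and Tgm2, and 3 were below the median gene, namely Socs1, Irf4 and Arg1. Tgm2 lay closest above this floor with a mean of 7.36, and Arg1 closest below it with 6.89. Retnla was at or above it on 2 of the 4 arrays and Tgm2 on 3. The highest level among the 9 genes was 11.93, far below the arrays' upper limits of 19.74 to 19.93.

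Markers of the labelled cell type were present throughout: 10 of 11 listed microglial markers were measured, and all 10 were expressed. Their summed intensity was 657105 in OVA and 629546 in PBS at P70, and 493160 in OVA and 534501 in PBS at P30. The brightest, Cx3cr1 (18.39 in OVA and 18.39 in PBS at P70) and Siglech (17.50 and 17.47), weigh most in this sum. The log2 differences OVA minus PBS of the 10 markers ran from -0.21 for Gpr34 to 0.51 for P2ry12 at P70, with Csf1r at 0.40. At P30 they ran from -0.39 for Olfml3 to 0.00 for Siglech, with Csf1r at -0.27. Markers of other cells were present too. The 11 neutrophil markers summed to 752523 in OVA and 885277 in PBS at P70, against 22846 in OVA and 70428 in PBS at P30. The 9 monocyte markers summed to 24950 in OVA and 22231 in PBS at P70, against 2459 in OVA and 2303 in PBS at P30. The 9 markers of border-associated macrophages, which line the meninges and vessels of the brain, summed to 7233 in OVA and 2788 in PBS at P70, a ratio of 2.59. At P30 they summed to 2042 in OVA and 2439 in PBS, a ratio of 0.837. None of the listed markers was at 0 on any array. More cells of a type and more RNA per cell cannot be told apart in such isolates.

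**Figure D1:**
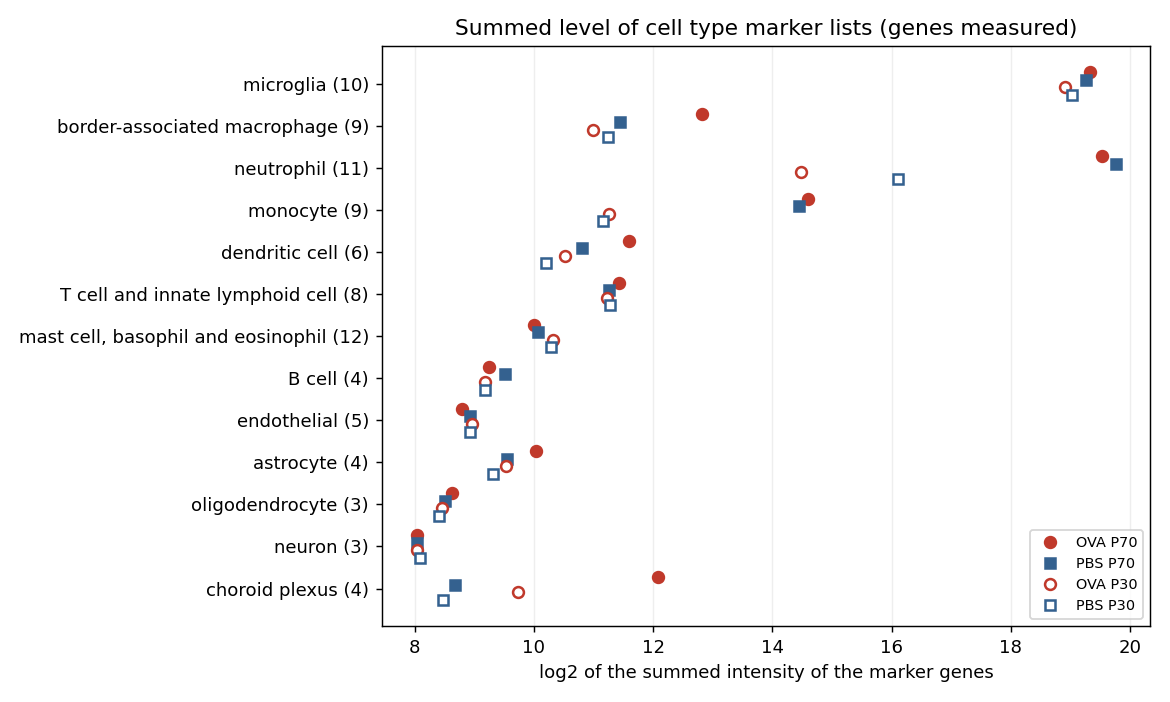
Log2 of the summed intensity of 13 cell type marker lists (x axis) on the 4 arrays, 1 point per array, with the number of genes measured in brackets (filled, P70; open, P30; red circles, OVA; blue squares, PBS). Neutrophil and monocyte sums are higher on both P70 arrays, and the sum of border-associated macrophage markers is highest in OVA at P70.

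The comparison of OVA with PBS at P70 addresses the response of microglia to allergic airway inflammation at the older age. The genes of the IL-13 receptor chain and of STAT6 were higher in OVA by more than the threshold, and the kinase gene Jak1 was not. Il13ra1 was 1.67-fold and Stat6 1.60-fold higher. Il4ra, at 1.47-fold, and the target gene Retnla, at 1.46-fold, lay just under the threshold. Past the threshold were 2 of the 6 expressed genes, both higher in OVA. The background was 4.01% of all expressed genes higher and 1.23% lower.

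Il4ra encodes the chain shared by both receptor types. Its level was 11.46 in OVA and 10.91 in PBS at P70, against 10.71 in OVA and 10.98 in PBS at P30. The P70 OVA array was the highest of the 4, and the P30 OVA array the lowest. The P70 difference was 0.55, and 4.76% of expressed genes had a larger one.

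Il13ra1 encodes the chain that makes the receptor responsive to IL-13. It was measured at 11.93 in OVA and 11.19 in PBS at P70, and at 10.72 in OVA and 10.76 in PBS at P30. Both P70 arrays were above both P30 arrays, with OVA at P70 highest. Its P70 difference of 0.74 was exceeded by 1.67% of expressed genes.

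Jak1 encodes 1 of the Janus kinases of this pathway. It reached 10.81 in OVA and 10.95 in PBS at P70, with 10.25 in OVA and 10.29 in PBS at P30. The arrays separated by age, and OVA was slightly below PBS at both ages, with differences of -0.14 at P70 and -0.04 at P30.

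Stat6 encodes the factor that both cytokines activate. Its level was 9.58 in OVA and 8.90 in PBS at P70, and 9.14 in OVA and 8.97 in PBS at P30. The P70 OVA array stood apart from the other 3, which lay between 8.90 and 9.14. Its P70 difference was 0.68, which 2.42% of expressed genes exceeded.

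**Figure D2:**
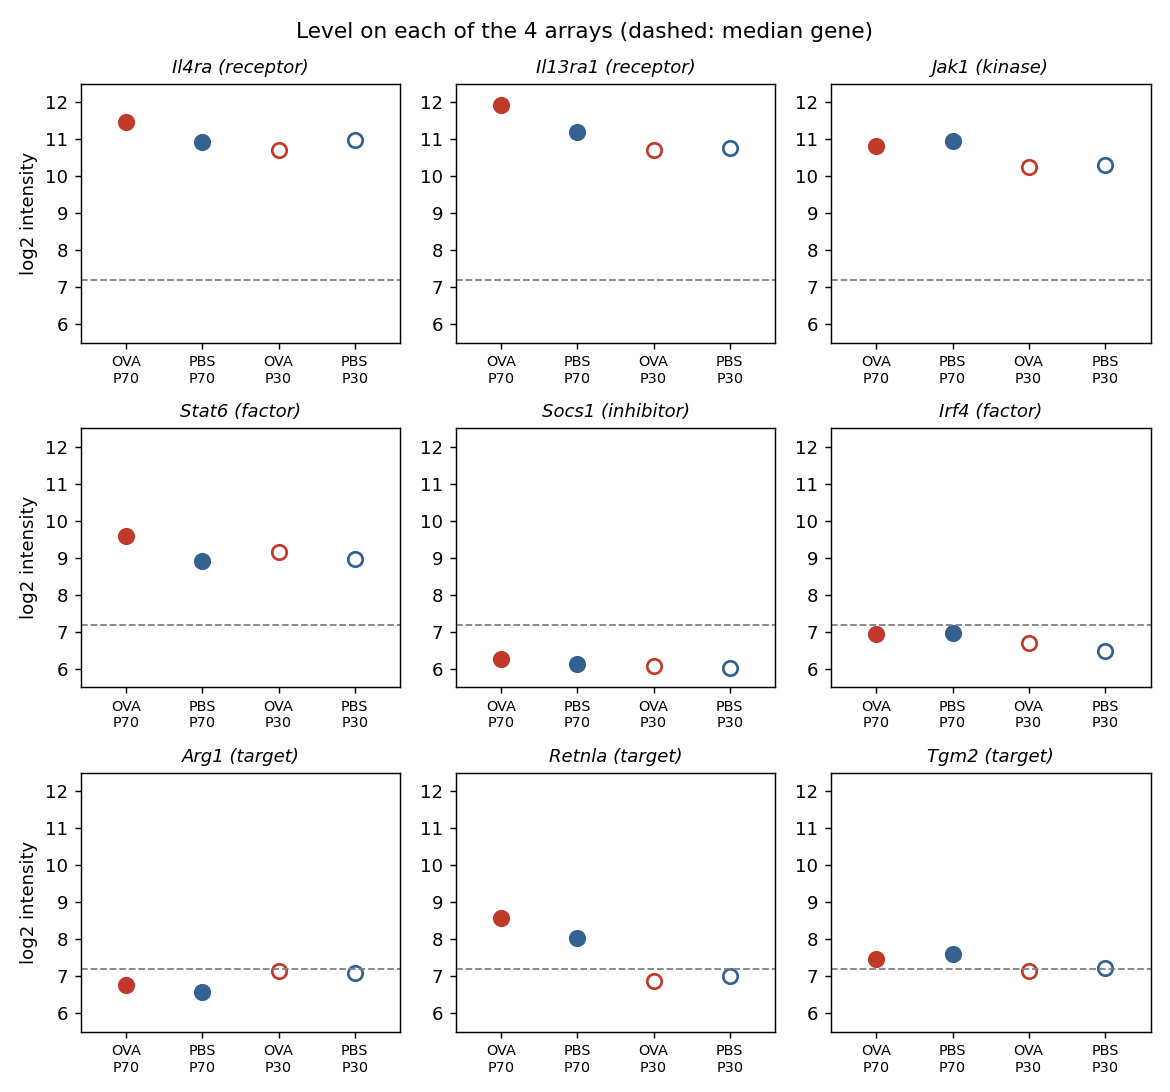
Log2 intensity (y axis) of the 9 measured genes on the 4 arrays, 1 point per array (red, OVA; blue, PBS; filled, P70; open, P30), with the dashed line at the median gene, 7.18. Il4ra, Il13ra1 and Stat6 are highest in OVA at P70, Retnla is above the line at P70 alone, and Socs1, Irf4 and Arg1 lie below it on all 4 arrays.

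The feedback inhibitor gene Socs1, which STAT signalling induces and whose product blocks Janus kinases, was dim on every array. It was at 6.27 in OVA and 6.13 in PBS at P70, and at 6.06 in OVA and 6.03 in PBS at P30. Irf4, a transcription factor gene that IL-4 induces in macrophages, was at 6.95 in OVA and 6.97 in PBS at P70, and at 6.69 in OVA and 6.49 in PBS at P30. Neither gene reached 1.5-fold in any of the 4 comparisons.

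Among the targets, Arg1, which encodes the arginine-degrading enzyme arginase 1, was below the median gene on all arrays. It was at 6.77 in OVA and 6.58 in PBS at P70, and at 7.14 in OVA and 7.08 in PBS at P30. Both P70 arrays were below both P30 arrays. Tgm2, the tissue transglutaminase gene, was at 7.48 in OVA and 7.59 in PBS at P70, and at 7.16 in OVA and 7.23 in PBS at P30. OVA was lower than PBS by 0.12 at P70 and by 0.07 at P30.

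Retnla encodes a small secreted protein of the resistin-like family and is a standard marker of IL-4 signalling in mouse macrophages. It was at 8.58 in OVA and 8.04 in PBS at P70, against 6.88 in OVA and 7.00 in PBS at P30. Both P70 arrays were above both P30 arrays, which lay under the floor. The OVA difference was 0.54 at P70, exceeded by 5.09% of expressed genes. Its relative Retnlg, a neutrophil gene of similar sequence, was at 13.42 in OVA and 14.27 in PBS at P70, and at 8.86 in OVA and 10.81 in PBS at P30. Retnlg was thus lower in OVA at both ages, by 0.85 at P70 and by 1.95 at P30, and whether its signal adds to that of Retnla was not tested.

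Promoters of the 4 genes with the largest positive P70 differences are given to show which of them holds a STAT6 motif close to the start of the gene. The windows run from 250 bases before to 50 bases after the start, 5′ to 3′ on the gene's strand, from RefSeq (build GRCm38.p6). They are Retnla at chr16:48842359-48842658, plus strand, Il13ra1 at chrX:36111858-36112157, plus strand, Stat6 at chr10:127642736-127643035, plus strand, and Il4ra at chr7:125552021-125552320, plus strand. Capitals mark the motif TTC, any 4 bases, GAA, the spacing that STAT6 prefers.
Retnla: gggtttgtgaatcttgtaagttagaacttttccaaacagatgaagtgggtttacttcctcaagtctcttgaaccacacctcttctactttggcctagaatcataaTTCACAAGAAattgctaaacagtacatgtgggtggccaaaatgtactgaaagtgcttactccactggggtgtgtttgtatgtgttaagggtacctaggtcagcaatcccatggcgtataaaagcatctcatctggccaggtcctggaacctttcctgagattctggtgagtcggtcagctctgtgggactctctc
Il13ra1: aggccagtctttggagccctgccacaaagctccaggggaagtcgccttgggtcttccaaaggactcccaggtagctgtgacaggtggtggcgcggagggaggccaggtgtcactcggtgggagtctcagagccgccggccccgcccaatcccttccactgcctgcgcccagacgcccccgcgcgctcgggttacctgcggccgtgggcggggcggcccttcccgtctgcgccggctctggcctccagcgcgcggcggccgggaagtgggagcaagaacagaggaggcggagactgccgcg
Stat6: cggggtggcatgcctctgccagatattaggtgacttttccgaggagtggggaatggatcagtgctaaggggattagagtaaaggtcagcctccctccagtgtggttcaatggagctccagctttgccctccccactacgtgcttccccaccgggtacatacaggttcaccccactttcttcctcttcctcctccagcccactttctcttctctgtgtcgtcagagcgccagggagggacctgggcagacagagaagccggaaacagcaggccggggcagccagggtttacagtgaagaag
Il4ra: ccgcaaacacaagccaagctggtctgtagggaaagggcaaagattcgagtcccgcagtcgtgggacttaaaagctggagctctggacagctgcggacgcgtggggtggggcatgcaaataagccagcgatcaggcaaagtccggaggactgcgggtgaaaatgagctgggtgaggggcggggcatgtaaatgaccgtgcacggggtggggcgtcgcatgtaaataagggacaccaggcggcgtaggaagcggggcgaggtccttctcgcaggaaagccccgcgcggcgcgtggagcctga

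Of the 10 genes, 8 had a promoter in the RefSeq table, and Arg1 and Tgm2 had none there. The motif with 4 bases between TTC and GAA, which matches the same places on both strands, was found in 1 of these 8, that of Retnla, with its first base 145 bases before the start. It was present in 6.95% of the 32851 promoters of this length. The motif with 3 bases between, used by other STAT proteins, was found in 0 of the 8 and in 8.30% of all promoters. The Retnla window also had the lowest share of G and C of the 4 windows printed, 44.7%, against 57.3% for Stat6, 62.0% for Il4ra and 71.0% for Il13ra1. A match in such a window is a description of letters and not a binding site.

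**Figure D3:**
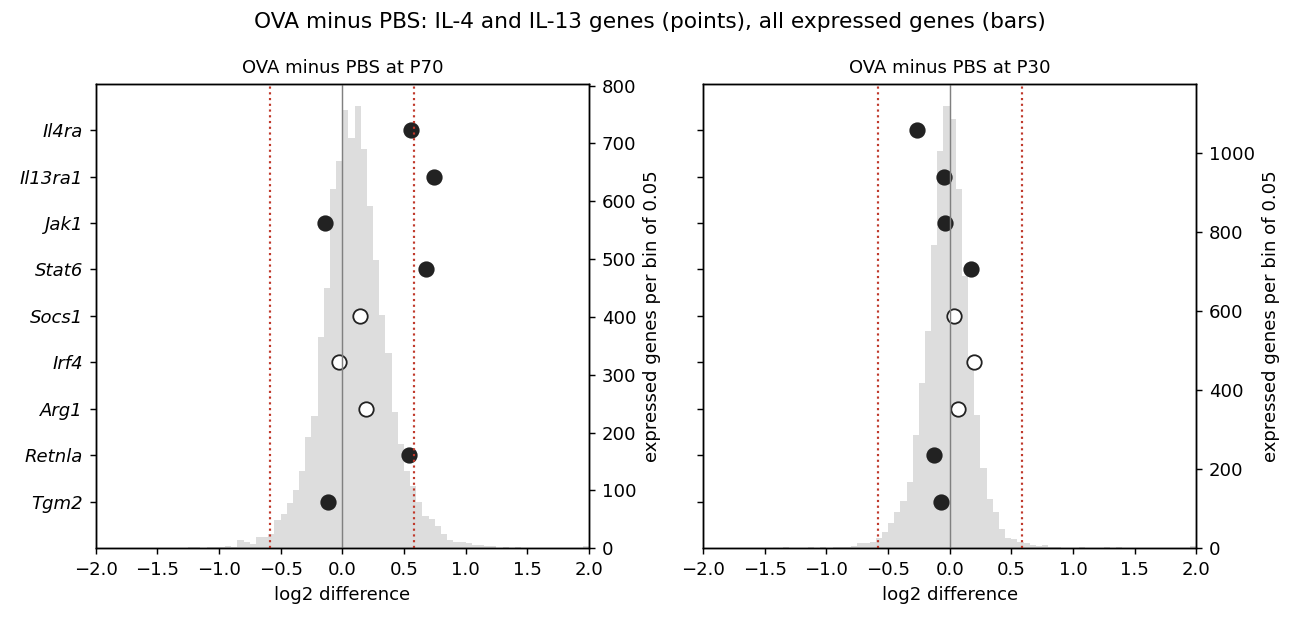
Log2 difference OVA minus PBS (x axis) at P70 (left) and P30 (right) for the 9 measured genes (points; open where the gene is below the median gene) over the number of expressed genes per bin of 0.05 (grey bars; genes beyond the axis are counted in the end bins). Dotted lines mark 1.5-fold. Il13ra1 and Stat6 lie past the line at P70, Il4ra and Retnla just inside it, and no gene lies past it at P30.

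The median difference of all expressed genes at P70 was itself above 0, at 0.09. Relative to it, Il13ra1 stood at 0.65, Stat6 at 0.59, Il4ra at 0.46, Retnla at 0.45 and Jak1 at -0.23. Centring the 2 arrays along the level gave 0.56 for Il13ra1 and 0.53 for Stat6, and quantile normalization gave 0.54 and 0.47, so no gene of the 6 reached 1.5-fold under these settings. Il13ra1, Stat6, Il4ra and Retnla stayed above 0 under both. The split of all expressed genes moved too, with 353 higher and 108 lower as deposited, 172 and 163 when centred along the level, and 106 and 104 under quantile normalization. Of 8 expressed markers of border-associated macrophages, 4 were at least 1.5-fold higher in OVA at P70, beside 4.01% of all expressed genes. These were Pf4 by 1.97, Ms4a7 by 1.94, Dab2 by 1.30 and Mrc1 by 1.06. The other expressed markers of this list lay between -0.03 (Cd209f) and 0.41 (Cbr2). The 6 dendritic cell markers summed to 3100 in OVA and 1792 in PBS at P70, with Cd209a higher by 1.30 and the other 5 between -0.64 (Xcr1) and -0.01 (Clec9a). The 4 choroid plexus markers summed to 4351 in OVA and 412 in PBS, with Ttr, the expressed one, higher by 4.12 and the other 3 between -0.18 (Clic6) and 0.38 (Kcnj13). Of 8 expressed monocyte markers, 2 were at least 1.5-fold higher in OVA at P70, S100a4 by 1.16 and Treml4 by 0.97. Treml4 reached the floor on 1 array, OVA at P70. All 8 were above 0, from 0.01 for F10, with a median of 0.39. The part of any of these cells in the differences of Il4ra, Il13ra1, Stat6 and Retnla was not tested.

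At P30, where the comparison asked the same of younger mice, no gene of the group differed by 1.5-fold in either direction. The backgrounds were 0.670% of expressed genes higher and 0.885% lower. Il4ra had the largest difference of the 9, -0.27, and 8.47% of expressed genes had a lower one. Irf4 (0.20) and Stat6 (0.17) were the most positive. The remaining 6 genes lay between -0.13 for Retnla and 0.07 for Arg1.

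The OVA differences at the 2 ages come from separate arrays and can be set side by side. Il4ra was at 0.55 at P70 and -0.27 at P30, Il13ra1 at 0.74 and -0.05, and Retnla at 0.54 and -0.13, so that these 3 genes had opposite signs. Stat6 was positive at both ages, 0.68 at P70 and 0.17 at P30. With 1 array per group the difference between ages was not tested for any gene.

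Other genes of the pathway were taken from 10 lists of 88 genes, of which 79 were measured and 42 expressed. At P70, 6 of the 42 (14.3%) were at least 1.5-fold higher in OVA and 2 (4.76%) lower, beside 4.01% and 1.23% of all expressed genes. At P30 none was higher and 1 (2.38%) was lower, beside 0.670% and 0.885%. The median difference of the 42 was 0.11 at P70 and -0.04 at P30, beside 0.09 and -0.01 for all expressed genes. The medians were thus close to those of all expressed genes. The shares past the threshold at P70 were above the background in both directions, which was not tested. The lists were chosen with earlier results of these data known, so the shares describe these lists only. Of the 6 higher genes, Irf5 (0.45), Clec10a (0.40) and Ccl17 (0.55) fell under the threshold after quantile normalization. Ccl24 counts as expressed through the P70 OVA array alone. The 2 lower genes were Retnlg and Rnase2a.

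The ligand genes gave little signal. Of 7 cytokine genes of type 2 responses, 6 were below the median gene: Il4, Il13, Il5, Il9, Il33 and Tslp. Il4 was at 5.72 in OVA and 5.76 in PBS at P70, and at 6.09 in OVA and 5.85 in PBS at P30. Il13 was at 6.80 in OVA and 7.36 in PBS at P70, and at 7.12 in OVA and 7.17 in PBS at P30. Il25 was the expressed member, at 7.21 in OVA and 7.29 in PBS at P70 and 7.76 in OVA and 7.80 in PBS at P30. Markers of the cells known to secrete IL-4 and IL-13 were mixed. Of 8 measured markers of T cells and innate lymphoid cells, Cd3g, Il7r, Nkg7 and Klrb1c were expressed on all 4 arrays, and Cd3d, Cd3e, Cd4 and Cd8a were below the floor on all 4. Cd3g was at 7.28 in OVA and 7.35 in PBS at P70, and at 7.73 in OVA and 7.86 in PBS at P30. Mcpt8 of basophils, Cpa3 of mast cells and Epx of eosinophils were below the floor on every array. Of the 12 mast cell, basophil and eosinophil markers, Siglecf was the expressed one, at 8.28 in OVA and 8.56 in PBS at P70. Under quantile normalization the OVA minus PBS differences of the 12 at P70 ran from -0.59 for Prg2 to 1.01 for Ccr3. Both of these genes had a mean below the median gene, and Ccr3 was at -0.26 at P30.

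Among 10 measured genes for receptors, kinases and adaptors, 6 were expressed, and 1 differed. Irs2, an adaptor that docks on the activated IL-4 receptor and links it to PI3 kinase, was at 9.89 in OVA and 8.87 in PBS at P70, against 8.91 in OVA and 9.21 in PBS at P30. The P70 OVA array was the highest of the 4, and the P70 difference was 1.02, or 2.03-fold. Irs2 kept 0.87 when centred along the level and 0.77 under quantile normalization. The other Janus kinase genes moved little, Jak2 by 0.09 and Tyk2 by -0.01 at P70, and the PI3 kinase subunit gene Pik3r1 by -0.08. The decoy receptor gene Il13ra2 was below the floor on every array. Jak3 and Il1rl1 were not analysed here.

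In the STAT family, none of 4 expressed members other than Stat6 differed by 1.5-fold between OVA and PBS. Their differences ran from -0.06 for Stat5a to 0.18 for Stat3 at P70 and from -0.17 for Stat3 to 0.17 for Stat2 at P30. In the interferon regulatory factor family, Irf5, a factor of inflammatory macrophage activation, was at 9.99 in OVA and 9.32 in PBS at P70, and 9.39 in OVA and 9.57 in PBS at P30. It was 1 of 6 expressed members past 1.5-fold at P70, with 0.67, and fell under it at 0.52 when centred along the level and at 0.45 under quantile normalization. The negative regulators had 5 expressed of 9 measured genes, none of which differed by 1.5-fold between OVA and PBS at either age. The phosphatase genes Inpp5d and Ptpn6 were at 0.39 and 0.16 at P70, and the STAT-induced inhibitor genes Cish, Socs2 and Socs3 were below the floor on all arrays.

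**Figure D4:**
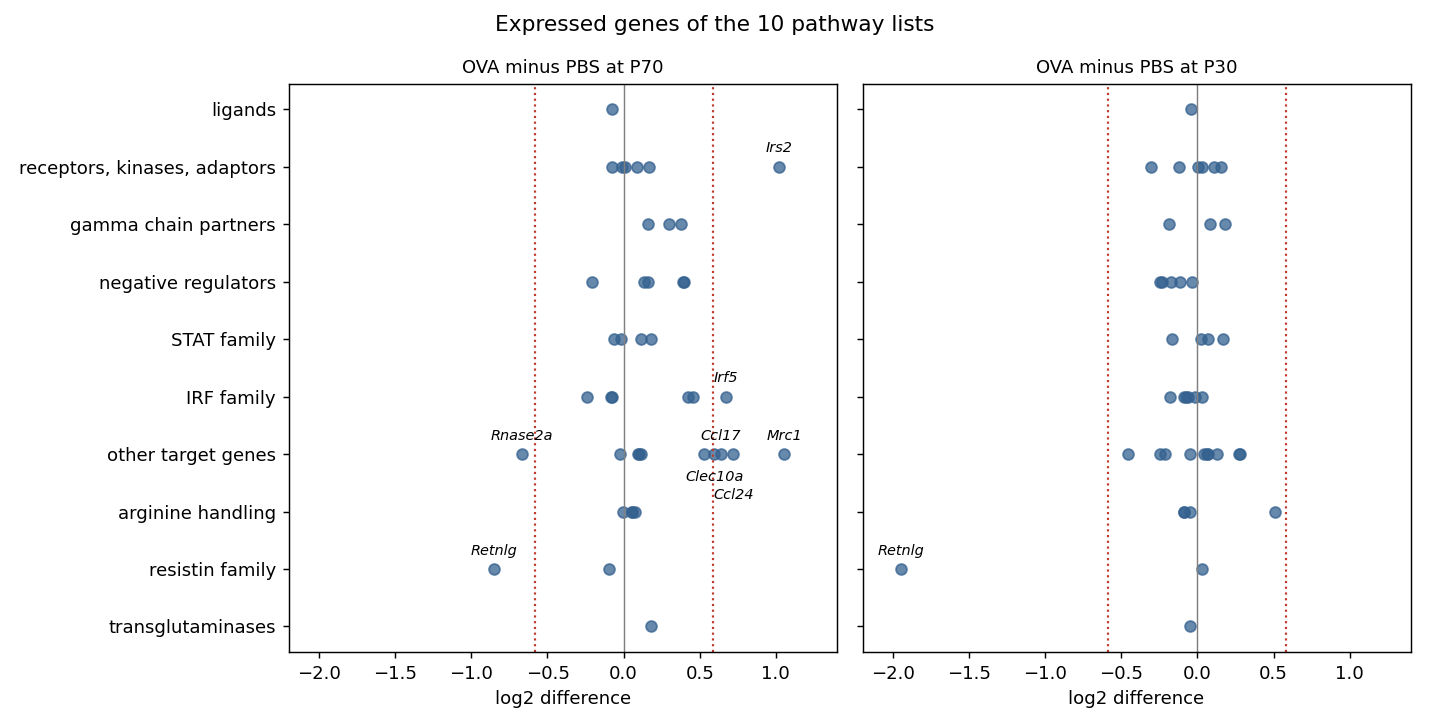
Log2 difference OVA minus PBS (x axis) at P70 (left) and P30 (right) for the 42 expressed genes of the 10 pathway lists, 1 point per gene. Dotted lines mark 1.5-fold and genes past them are named. At P70, 6 genes lie past the upper line and 2 past the lower one, and at P30 Retnlg alone lies past a line.

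Other target genes of IL-4 in macrophages held most of the pathway genes that were higher at P70: of the 10 expressed members, 4 passed the threshold upward and 1 downward, beside 4.01% and 1.23% of all expressed genes. The mannose receptor gene Mrc1 was at 9.74 in OVA and 8.68 in PBS at P70, against 8.31 in OVA and 8.76 in PBS at P30. Its difference was 1.06 at P70 and -0.46 at P30, and it is also a marker of border-associated macrophages. The chemokine genes Ccl24 and Ccl17, whose products attract eosinophils and T cells, were higher by 0.72 and 0.64, both from PBS levels under the floor (7.03 and 6.92). Ccl24 reached the floor on 1 of the 4 arrays, OVA at P70, and was at 7.03 in OVA and 6.96 in PBS at P30. It thus counts as expressed only through the array on which it is high, so its place in the count is no support. The lectin gene Clec10a was at 9.22 in OVA and 8.63 in PBS, a difference of 0.59, and its neighbour in the family Mgl2 was at 9.04 in OVA and 8.51 in PBS, or 0.53. Rnase2a, of a ribonuclease family with near-identical copies and therefore uncertain, was lower by 0.67. Centred along the level, Mrc1 was at 0.92, Ccl24 at 0.73, Ccl17 at 0.68 and Clec10a at 0.47. Under quantile normalization Mrc1 was at 0.81, Ccl24 at 0.61, Ccl17 at 0.55 and Clec10a at 0.40, so that Clec10a fell under the threshold in both and Ccl17 in the second. Targets such as Pparg, Cdh1, Alox15 and Pdcd1lg2 were below the floor on every array, and Egr2 differed by -0.03 at P70.

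The ages were then set against each other, P70 minus P30, within OVA and within PBS. Over all expressed genes the median was 0.39 in OVA and 0.26 in PBS. Past the threshold, 38.6% of expressed genes were higher at P70 in OVA and 4.31% lower, and in PBS 29.1% were higher and 2.88% lower. Under quantile normalization the split was 1132 genes higher and 1033 lower in OVA, against 3404 and 380 as deposited, and 1005 and 859 in PBS, against 2563 and 254. Of the 6 expressed genes of the group, 3 passed the threshold upward as deposited in OVA (Il4ra, Il13ra1 and Retnla) and 2 in PBS (Jak1 and Retnla), and none downward. Retnla counts as expressed through its P70 arrays alone, so its place in both counts is no support. These shares lie near the background. The age comparisons also use the same arrays as the OVA comparisons.

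Retnla had the largest age difference of the 9 genes, 1.70 in OVA (3.25-fold) and 1.03 in PBS (2.04-fold). Larger ones were seen in 5.30% of expressed genes in OVA and in 12.8% in PBS. Centred along the level, Retnla stood at 1.57 in OVA and 0.99 in PBS, and under quantile normalization at 1.58 and 1.02. Neutrophil and monocyte marker sums, with summed ratios of P70 over P30 of 32.9 and 10.1 in OVA and 12.6 and 9.65 in PBS, moved the same way, and their part in the Retnla difference was not tested.

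The age differences of the receptor, kinase and Stat6 genes moved with the scaling. Il13ra1 was at 1.22 in OVA and 0.43 in PBS, and when centred along the level at 0.14 and -0.38. Il4ra was at 0.75 in OVA and -0.07 in PBS, and after such centring at -0.30 and -0.88. Jak1 was at 0.56 in OVA and 0.66 in PBS, and then at -0.41 and -0.10. Stat6 was at 0.43 in OVA and -0.07 in PBS, and then at -0.26 and -0.49. The direction with age thus turned for Jak1 in both treatments, for Il4ra and Stat6 in OVA and for Il13ra1 in PBS.

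Of the targets, Tgm2 was higher at P70 by 0.32 in OVA and 0.37 in PBS, and by 0.39 and 0.35 after centring along the level. Arg1 was lower at P70 by 0.37 in OVA and 0.50 in PBS, and 92.6% and 96.1% of expressed genes had a higher difference. Irf4 was at 0.26 in OVA and 0.48 in PBS, and Socs1 at 0.21 and 0.10.

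**Figure D5:**
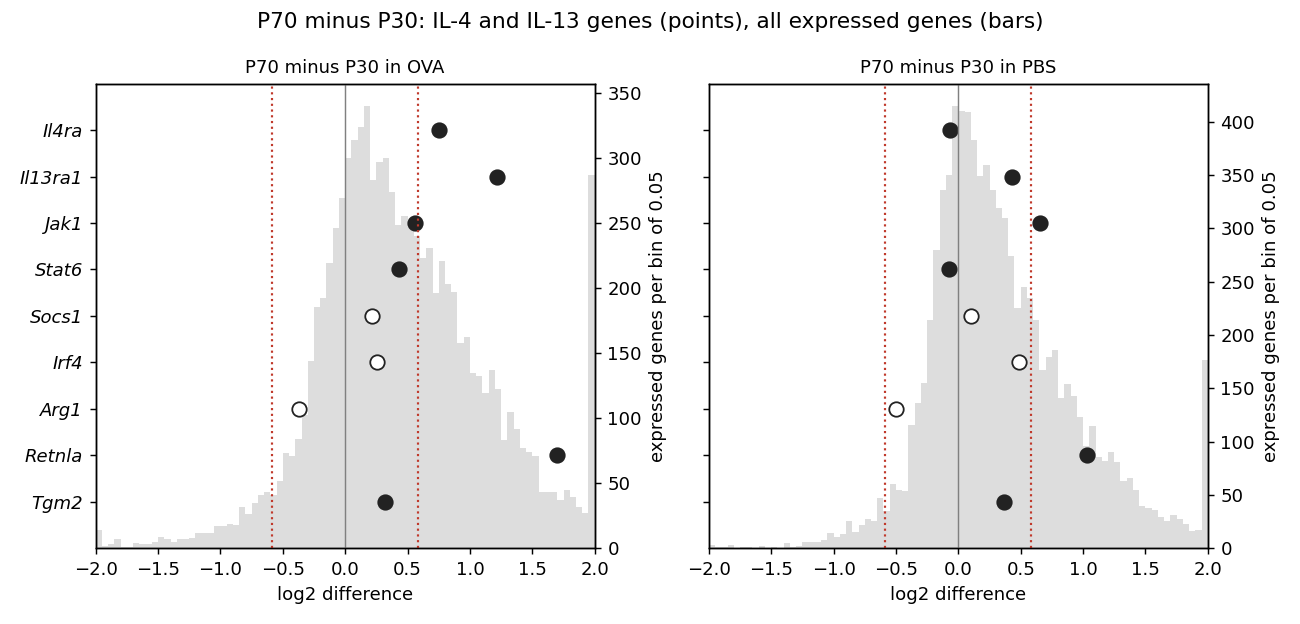
Log2 difference P70 minus P30 (x axis) in OVA (left) and PBS (right) for the 9 measured genes (points; open where the gene is below the median gene) over the number of expressed genes per bin of 0.05 (grey bars; genes beyond the axis are counted in the end bins). Dotted lines mark 1.5-fold. The bars themselves are shifted to the right of 0, and Retnla is the rightmost point in both panels.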

How the data were processed

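Microglia of 4 groups were measured on 1-colour arrays, 1 array per group. The deposited values are intensities per probe set on a linear scale. Per the submitters' processing notes, Affymetrix Expression Console 1.4.1 and RMA were used; their settings and the step from RMA to linear values are not given in the sources used here. How arrays were scaled to each other, and the genome build, are not given in the sources used here.

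Of 65956 probe sets, 30604 had 1 gene symbol, 2146 several and 33206 none here. Symbols of 827 were updated by Entrez ID through a RefSeq table (GRCm38.p6). A further 12752 probe sets were dropped, those of antigen receptor segments, of odorant and vomeronasal receptors, of small RNAs and of predicted genes. The brightest probe set stood for each gene, and log2 values were taken with no further normalization (Python 3.11.15, pandas 2.3.3). With 1 array per group no test was made. Calls were tried on simulated data with changes larger than the threshold and little noise. Such a trial checks the code and not the precision of these arrays.

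The genes and lists were chosen with earlier results of these data known. Genes to be named were all members, and pathway genes past 1.5-fold between OVA and PBS, the 4 largest past it by age and the 2 brightest of a list. Of cell types they were up to the 4 largest and 2 brightest. Not every gene that meets this rule is named, and neutrophil markers are given mainly as a sum. Genes named as dim or as near relatives lie outside this rule and were chosen after their values were seen. Alternatives covered normalization, dim genes, probe sets, the genes kept and the threshold. A value was taken to move when it shifted by more than 0.1, a count when it changed by more than 1.5 times. The value of a gene was also taken to move when it crossed the threshold.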

Additional observations from a re-analysis of the deposited data

Results flagged for a closer look

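The OVA differences of 3 genes lay on opposite sides of 0 at the 2 ages and were at least 1.5-fold apart. This difference was not tested, since each group had 1 array. Whatever the signs, the OVA effect was at least 1.5-fold higher at P70 than at P30 in 7.76% of all expressed genes and lower in 2.26%. Its median shift was 0.10 over all expressed genes, 0.29 over 10 microglial markers and 0.98 over 8 expressed markers of border-associated macrophages. Il4ra differed by 0.82 between the ages (0.55 at P70 and -0.27 at P30). For Il13ra1 the difference was 0.79 (0.74 at P70 and -0.05 at P30), and its P30 value was 0.01 after quantile normalization and after centring along the level. Retnla was 0.67 apart (0.54 at P70 and -0.13 at P30), with both P30 arrays under the floor. After quantile normalization the 3 values were 0.59 for Il4ra, 0.53 for Il13ra1 and 0.57 for Retnla. Centred along the level they were 0.59, 0.56 and 0.56. Il13ra1 and Retnla thus fell under 1.5-fold in both settings, and Il13ra1 no longer had opposite signs.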

How the results depend on the processing

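No paired analysis was possible because each group had 1 array and no result came from a test. Centring each array on its median, or averaging the probe sets of a gene, moved none of the medians or counts beyond the tolerance. Centring on the median did take 1 member, Jak1, over 1.5-fold for P70 minus P30 in OVA, where it was at 0.56 as deposited. Quantile normalization and centring along the level changed most. Given in that order, the median over the 6 expressed members was 0.37 and 0.42 for OVA minus PBS at P70 (0.55 as deposited), and 0.39 and 0.45 for the difference between the OVA effects (0.59 as deposited). For P70 minus P30 it turned to -0.0738 and -0.0582 in OVA (0.65 as deposited) and to -0.27 and -0.24 in PBS (0.40 as deposited). Members at least 1.5-fold higher numbered 0 and 0 at P70, where 2 were as deposited. They numbered 1 and 1 in each age comparison, Retnla, which counts as expressed through its P70 arrays alone. In PBS 1 was lower under each, Il4ra. By age, Il4ra in OVA turned to -0.33 and -0.30 and Jak1 in PBS to -0.14 and -0.10. The cause was not tested. Over all expressed genes, quantile normalization left 106 higher at P70 and 100 higher at P30; by age it left 1132 higher and 1033 lower in OVA, and 1005 higher and 859 lower in PBS. Centring along the level left 172 higher and 163 lower at P70; by age it left 1168 higher and 947 lower in OVA, and 1020 higher and 764 lower in PBS. It was fitted on expressed genes and gave no value for the 3 dim members.

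With no filter, the median over the 9 measured members was 0.20 at P70, 0.43 for P70 minus P30 in OVA and 0.13 for the difference between the OVA effects. The genes then counted were 214 lower at P70, 99 higher at P30, and by age 1291 lower in OVA and 731 lower in PBS. With a stricter filter these were 47, 39, 113 and 97, and for age in PBS the members' median was 0.18 and 1 was higher. With all genes of 1 symbol, 630 genes were higher and 995 lower at P70, 208 higher and 375 lower at P30, and by age 2862 were lower in OVA and 2379 in PBS. At 2-fold, members higher numbered 0 at P70 and 1 by age in PBS. Genes at 2-fold were 42 higher and 18 lower at P70, 17 higher and 16 lower at P30, and by age 1743 higher and 139 lower in OVA and 1194 higher and 61 lower in PBS. Signal over background limits Socs1, Irf4 and Arg1, and Retnla at P30.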

Other observations

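Of 4 expressed genes that handle arginine, the substrate of arginase 1, 1 was at least 1.5-fold higher and 1 lower at P70 than at P30 in each treatment. The backgrounds were 38.6% higher and 4.31% lower in OVA, and 29.1% higher and 2.88% lower in PBS. Odc1, the rate-limiting enzyme of polyamine synthesis, was at 9.12 in OVA and 9.04 in PBS at P70, against 10.25 in OVA and 9.74 in PBS at P30. It was lower at P70 in both treatments, by 1.13 in OVA and by 0.70 in PBS. Its OVA minus PBS difference at P30 was 0.51, and 0.62 under quantile normalization, past the threshold. Oat, which encodes ornithine aminotransferase, was higher at P70 by 1.15 in OVA and 1.07 in PBS. The transporter gene Slc7a1 was at 0.18 in OVA and 0.08 in PBS, and Asl, of the urea cycle, at 0.08 and -0.06. Nos2, the inducible nitric oxide synthase gene that competes for arginine, was below the floor on every array. Among genes of receptors that pair with the common gamma chain, Il7r was at 10.91 in OVA and 10.61 in PBS at P70 and 10.17 in OVA and 10.36 in PBS at P30. Ptpn2, a phosphatase that acts on Janus kinases, was higher at P70 by 0.78 in OVA and 0.88 in PBS. Under quantile normalization it was at 0.44 in OVA, under the threshold, and at 0.60 in PBS.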
